A study of Mus musculus with 6 samples.

Results

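The protein tyrosine phosphatase genes of fully-grown mouse oocytes at the germinal vesicle stage were compared between control and Uba3 conditional knockout (Uba3 cKO) pools. Members were all genes in the deposited table whose mouse symbol begins with Ptpn and a number or with Ptpr and a letter, which gave 37 of 28738 gene IDs. Of these, 17 have a non-receptor (Ptpn) name and 20 a receptor (Ptpr) name. No gene ID was matched to the symbol Ptprg, so that receptor gene is not among the members. The 3 control and 3 Uba3 cKO libraries each came from a pool of about 150 oocytes of mice labelled C57/Bl6/N;129SvEv7. The product of Uba3 is the catalytic part of the NEDD8-activating enzyme, and NEDD8 is a small ubiquitin-like protein that is attached to other proteins. The Cre driver, the age of the mice and the number of mice per pool are not stated.

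Protein tyrosine phosphatases remove phosphate from tyrosine residues and thereby oppose, or in some cases activate, tyrosine kinases. Non-receptor members are placed in the cell by targeting domains such as SH2, FERM, PDZ or proline-rich PEST regions, and receptor members carry extracellular parts that bind other cells or matrix. In oocytes, removal of inhibitory tyrosine phosphate from the kinase CDK1, by the separate CDC25 phosphatases, is the classic switch out of the germinal vesicle arrest.

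Of the 37 members, 33 reached a value of 10 on the linear scale (the deposited log2 value raised back from the logarithm) in 3 or more libraries and were tested. None passed this filter through the libraries of 1 group alone. The table holds no read counts, and library depth is unknown. The 6 libraries resembled each other closely, with Pearson correlations of 0.997 to 0.998 within groups and 0.995 to 0.997 across groups over the 17450 tested genes. All 12 oocyte markers were above the filter, with control means from 8.60 for Figla to 17.05 for Bmp15. Zp2 (-0.30) and Bmp15 (-0.25) fell and Dazl rose (0.40), and each of these calls ended without at least 1 library (adjusted p up to 0.0543, 0.134 and 0.211). Among the 12 markers 16.7% were called lower and 8.33% higher, against 2.50% and 5.64% over all tested genes. The difference was below 0 for 9 of the 12, and the groups overlapped for Dazl. The summed linear level of the 12 ranged from 502492 to 556445 in control and from 442409 to 494563 in Uba3 cKO pools. These ranges did not overlap (exact two-sided permutation p = 0.1, the smallest possible with 3 against 3 libraries). Control replicates 1, 2 and 3 had Uba3 values of 11.37, 11.46 and 11.34, and the Uba3 cKO pools had 10.03, 10.16 and 10.36, so Uba3 was lower in every library labelled Uba3 cKO (log2 difference -1.21, adjusted p = 2.07e-05). Calling a gene took an adjusted p below 0.05 in limma (Benjamini-Hochberg, over all tested genes), and every adjusted p given for a gene comes from that fit. A positive log2 difference means a higher level in Uba3 cKO.

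In Uba3 cKO oocytes, 9 tyrosine phosphatase genes rose and 1 fell, and 23 of the 33 tested were not called. The genes that rose were the receptor-named Ptprj, Ptpre, Ptprk, Ptprr, Ptprb and Ptprq and the non-receptor Ptpn12, Ptpn22 and Ptpn3, and the gene that fell was Ptpn18. Over all tested genes 8.14% were called, 5.64% higher and 2.50% lower, against 30.3%, 27.3% and 3.03% of the tested members. The median log2 difference was 0.12 over the members and -0.01 over all tested genes. There was no overlap between the groups for 13 of the 33 tested members, 11 of them higher and 2 lower, where 27.9% of all tested genes did not overlap, 15.1% higher and 12.8% lower. The changes were moderate, from 1.30-fold for Ptprr to 1.56-fold for Ptprj among the genes that rose. Without control replicate 2 or control replicate 3 the calls were 4 higher and none lower, and without Uba3 cKO replicate 1 or Uba3 cKO replicate 3 they were 5 higher and 1 lower. Without Uba3 cKO replicate 2 there were 8 higher and 2 lower, and without control replicate 1 there were 7 higher and 1 lower. Calls over all tested genes also varied, from 618 to 1637 with 1 library left out, against 1421 in the reported fit. The median of the members was 0.18 without control replicate 1 and lay between 0.08 and 0.18 over the 6 libraries left out. The tested members have long transcripts, with a median longest annotated transcript of 5740 bases against 3055 over all tested genes, and after each library was corrected for transcript length and GC content 7 members were called higher and 1 lower.

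**Figure D1:**
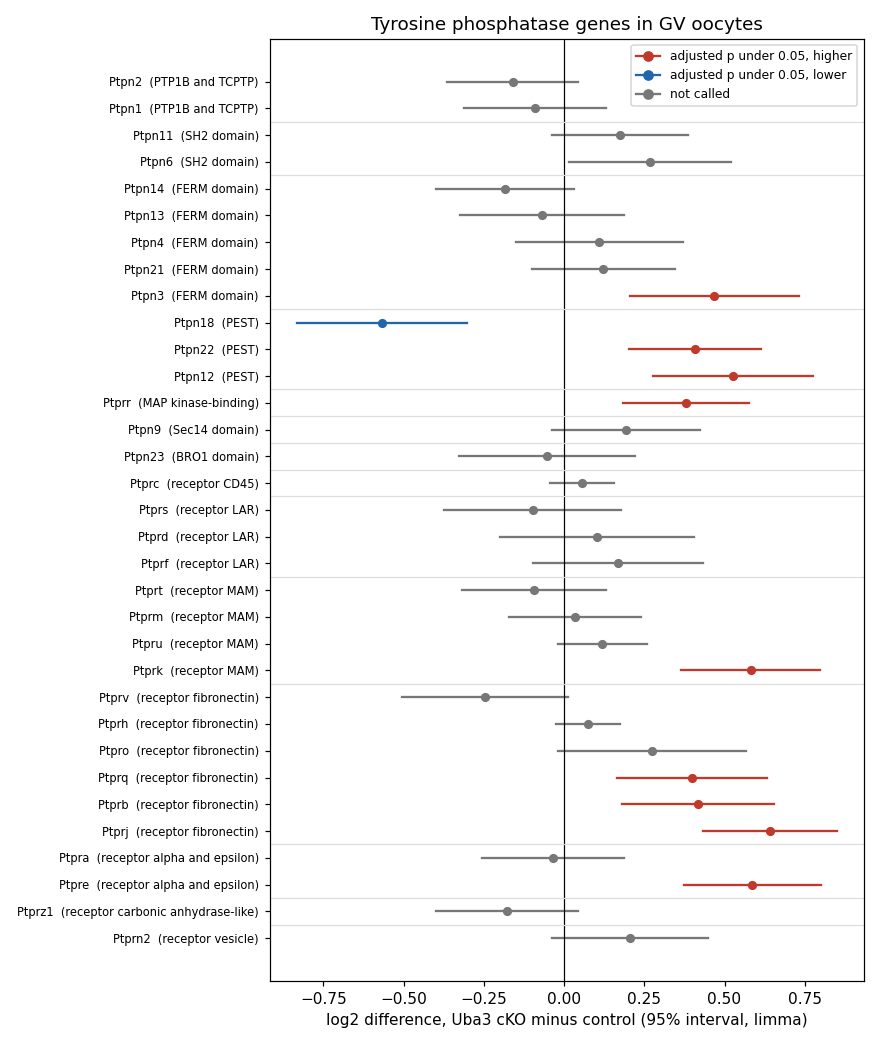
Log2 difference between Uba3 cKO and control oocytes (x axis) for the 33 tested members, grouped by subfamily on the y axis, with points for the limma estimate and bars for its 95% interval. The 9 red bars lie right of 0, from 0.38 for Ptprr to 0.64 for Ptprj, the blue bar of Ptpn18 lies left of it at -0.57, and the 23 grey members were not called.

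Upstream sequences of 3 genes that rose and of the gene that fell are shown, to set the letters at their starts side by side. RefSeq's table (build GRCm38.p6) held a promoter for 7 of the 10 called genes, with 14 start sites. Windows of the 150 bases upstream of a start were searched for matches, on both strands, to 5 short motifs. The GC box was spelled GGGCGG. The box read by the factor NF-Y was spelled CCAAT. The TATA box was spelled TATAAA. The E-box was spelled CANNTG, where N is any base. The homeobox core was spelled TAATTG. Capitals mark matches, and the run CCAATTA in Ptpn18 holds an overlapping match to the CCAAT box and to the homeobox core. The 4 windows contain no annotated exon. Ptprk, Ptpn3 and Ptpre rose and Ptpn18 fell, and for Ptpre the window is that of the most downstream of its 3 listed starts, since the windows of the other starts contain annotated exons of the gene. For Ptpn18, the bases that follow the window were not found in a GENCODE M21 transcript of the gene, so the window may not adjoin the start of those transcripts.
Ptprk, chr10:28074670-28074819, plus strand: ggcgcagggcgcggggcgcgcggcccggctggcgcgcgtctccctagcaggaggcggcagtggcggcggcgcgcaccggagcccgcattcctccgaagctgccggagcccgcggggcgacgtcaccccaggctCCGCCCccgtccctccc
Ptpn3, chr4:57301838-57301987, minus strand: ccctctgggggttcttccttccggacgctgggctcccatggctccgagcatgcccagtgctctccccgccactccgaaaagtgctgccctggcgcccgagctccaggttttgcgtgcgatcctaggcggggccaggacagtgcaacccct
Ptpre, chr7:135605678-135605827, plus strand: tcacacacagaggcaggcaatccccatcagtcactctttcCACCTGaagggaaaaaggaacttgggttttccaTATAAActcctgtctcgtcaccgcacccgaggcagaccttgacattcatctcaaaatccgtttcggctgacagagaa
Ptpn18, chr1:34459596-34459745, plus strand: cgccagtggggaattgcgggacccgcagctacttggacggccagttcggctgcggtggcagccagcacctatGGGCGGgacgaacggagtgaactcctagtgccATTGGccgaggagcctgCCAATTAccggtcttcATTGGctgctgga

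The windows differed in base composition. The Ptprk window held 25 CpG dinucleotides at 82.0% GC, that of Ptpn18 11, that of Ptpn3 10 and that of the downstream Ptpre start 5. The windows of the other Ptpre starts held 16 CpG at 75.3% GC, with a GC box, and 3 CpG at 52.0% GC, so the composition depends on the start shown. Other genes that rose had windows without annotated exons that are not shown. They held 1 CpG at both Ptpn22 starts, and 3 and 2 CpG at starts 2 and 3 of Ptprr. Windows with annotated exons reached 21 CpG, at the most upstream Ptprj start. The median over 32851 upstream windows of all genes was 4 CpG and 54.0% GC. Ptpn18 was the only one of the 4 with CCAAT boxes, of which it had 3, and with a homeobox core. Among all windows 24.5% held a CCAAT box, 4.05% the homeobox core, 28.6% a GC box, 47.7% an E-box and 7.57% a TATA box. Gene-level values do not say which start of a gene with several starts was used.

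The fibronectin-type receptors, which carry repeats of the fibronectin type III fold, held the member with the largest rise. Ptprj encodes DEP-1 (CD148), which acts on growth factor receptors and Src-family kinases. Control replicates 1, 2 and 3 had Ptprj values of 11.59, 11.33 and 11.54, and the Uba3 cKO pools had 12.22, 12.03 and 12.13. The lowest Uba3 cKO pool thus stood well above the highest control pool. Ptprj rose by 0.64 (SE 0.10, 95% interval 0.43 to 0.85, adjusted p = 0.00124), a 1.56-fold higher level, and the call held without any single library (adjusted p up to 0.0108). The antisense gene 4933423P22Rik, which overlaps Ptprj, was near the bottom of the range (0.27 in both groups).

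Ptprb encodes VE-PTP, known from blood vessels, where it binds TIE2 (encoded by Tek) and VE-cadherin (Cdh5). Control pools had values of 7.52, 7.60 and 7.49, and Uba3 cKO pools of 8.16, 7.90 and 7.81. The groups did not overlap, with Uba3 cKO replicate 1 the highest. Ptprb rose by 0.42 (SE 0.11, adjusted p = 0.0333). That call ended without control replicate 1, 2 or 3 (adjusted p of 0.0550, 0.0681 and 0.128), without Uba3 cKO replicate 1 (0.158) and under the length and GC correction (0.0956). Of the 8 endothelial markers, which leave Ptprb out, none rose and 1 fell, Tie1 (-0.59). That is 12.5% called, against 8.14% over all tested genes. Cdh5 stood at 4.35 in control and 4.21 in Uba3 cKO pools, Tek at 10.01 and 10.23, and Pecam1 at 11.30 in both. The summed linear level of the 8 markers ranged from 4043 to 4370 in control and from 4051 to 4786 in Uba3 cKO pools (exact two-sided permutation p = 0.4, where 3 against 3 libraries cannot go below 0.1). The part of vessel cells in the Ptprb result was not tested. In pooled cells, a change in the number of cells of a type and a change in RNA per cell cannot be told apart.

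Ptprq, best known from the stereocilia of inner ear hair cells, had values of 7.28, 7.48 and 7.32 in control and 7.59, 7.90 and 7.78 in Uba3 cKO replicates. The gap between the groups was small beside the spread within them. Ptprq rose by 0.40 (SE 0.11, adjusted p = 0.0393), and of the 6 libraries, Uba3 cKO replicate 1 was the only one that could be left out with the call kept. It ended without control replicate 1, 2 or 3 (adjusted p of 0.0813, 0.0521 and 0.140), without Uba3 cKO replicate 2 or 3 (0.113 and 0.109) and under the length and GC correction (0.107).

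The 3 other fibronectin-type receptors were not called. Ptpro, known from podocytes as GLEPP1, had values of 8.16, 8.48 and 7.91 in control and 8.47, 8.30 and 8.60 in Uba3 cKO replicates, with overlap (log2 difference 0.27, 95% interval -0.02 to 0.57, adjusted p = 0.252). Ptprv had values of 6.90, 6.65 and 6.71 in control and 6.46, 6.78 and 6.28 in Uba3 cKO replicates (-0.25, interval -0.51 to 0.01, adjusted p = 0.245). Without Uba3 cKO replicate 2, the highest of its group, Ptprv was called lower (-0.38, adjusted p = 0.0488). Ptprh was low in all pools, with control values from 4.16 to 4.18 and Uba3 cKO values from 4.21 to 4.31 that did not overlap them, and a difference of 0.08 (adjusted p = 0.358).

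Of the pair of small receptors with short extracellular parts, Ptpre rose and Ptpra was not called. Ptpre encodes PTP epsilon, made in a receptor form and a cytosolic form. It stood at 11.36, 11.66 and 11.47 in control and 12.18, 12.06 and 12.01 in Uba3 cKO replicates, with a clear gap between the groups. The rise was 0.59 (SE 0.10, adjusted p = 0.00277), or 1.501-fold, and the call held without any single library (adjusted p up to 0.0220). The overlapping antisense gene 5830432E09Rik lay at 0.16 in both groups. Ptpra, whose product PTP alpha activates Src-family kinases by removing their inhibitory phosphate, had control values from 8.93 to 9.19 and Uba3 cKO values from 8.95 to 9.08. Its difference was -0.03, with an interval of -0.26 to 0.19. The difference between the changes of Ptpre and Ptpra was not tested.

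Among the MAM-domain receptors, which bind their own kind on neighbouring cells, Ptprk rose. Its values were 7.92, 7.73 and 7.90 in control and 8.45, 8.36 and 8.48 in Uba3 cKO replicates. All 3 Uba3 cKO pools lay above all control pools, and the spread within each group was small. Ptprk rose by 0.58 (SE 0.10, adjusted p = 0.00318), or 1.496-fold, and the call held without any single library (adjusted p up to 0.0184). Ptprm, the member of this subfamily with the highest level per kilobase, stood between 9.30 and 9.43 in control and between 9.38 and 9.44 in Uba3 cKO pools (0.03, interval -0.17 to 0.24). Ptpru, at 4.95, 4.85 and 4.82 in control and 5.002, 5.07 and 4.90 in Uba3 cKO replicates, and Ptprt (-0.09) were not called. The adjusted p was 0.291 for Ptpru and 0.645 for Ptprt.

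No LAR-type receptor was called. These adhesion receptors, known from axon growth and synapse formation, are Ptprd, Ptprf and Ptprs. Ptprd had values of 11.86, 11.45 and 11.95 in control and 11.78, 12.14 and 11.63 in Uba3 cKO replicates, so the groups overlapped (0.10, interval -0.20 to 0.41). The differences were 0.17 for Ptprf and -0.10 for Ptprs, with intervals of -0.10 to 0.43 and -0.37 to 0.18. Ptprz1, a receptor with a carbonic anhydrase-like domain, had values of 7.57, 7.51 and 7.62 in control and 7.30, 7.55 and 7.31 in Uba3 cKO replicates (-0.18, adjusted p = 0.323). Ptprn2, a member of the secretory vesicle type that lacks usual phosphatase activity, had values of 8.17, 8.16 and 8.21 in control and 8.39, 8.18 and 8.59 in Uba3 cKO replicates (0.21, adjusted p = 0.302). Its relative Ptprn was below the filter, at 2.84 in control and 2.80 in Uba3 cKO pools.

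**Figure D2:**
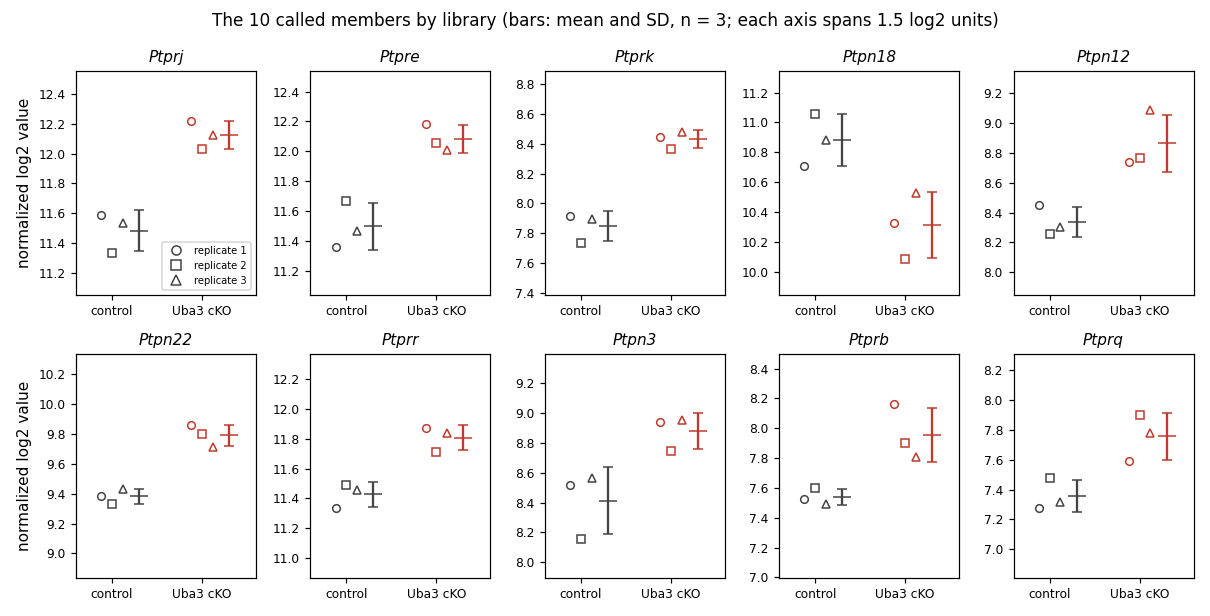
Normalized log2 value (y axis, 1.5 log2 units in every panel) of the 10 called members in each library, control in grey and Uba3 cKO in red, with symbols for replicates 1 to 3 and bars for the mean and SD (n = 3). The groups do not overlap in any panel, and the gap is wide for Ptprj (11.59 against 12.03) and narrow for Ptprq (7.48 against 7.59).

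The PEST phosphatases were called in both directions, and all 3 of them were called. Ptpn12 encodes PTP-PEST, which acts on the adhesion scaffold p130Cas (encoded by Bcar1). It stood at 8.45, 8.26 and 8.30 in control and 8.74, 8.76 and 9.09 in Uba3 cKO replicates. Uba3 cKO replicate 3 was the highest pool, and the groups did not overlap. Ptpn12 rose by 0.53 (SE 0.12, adjusted p = 0.0131). The call ended without control replicate 2 or 3 (adjusted p of 0.0557 and 0.0628) and without Uba3 cKO replicate 3 (0.0637, difference 0.42). Bcar1 was not called (-0.09, adjusted p = 0.641).

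Ptpn22 encodes a phosphatase that restrains T cell receptor signalling together with the kinase CSK. In the oocyte pools it stood at 9.39, 9.33 and 9.43 in control and 9.86, 9.80 and 9.71 in Uba3 cKO replicates. It rose by 0.41 (SE 0.10, adjusted p = 0.0188) and the SD over 3 pools was 0.05 in control and 0.07 in Uba3 cKO. The call ended without control replicate 2 or 3 (adjusted p of 0.0587 and 0.0596) or Uba3 cKO replicate 1 (0.0945). Csk was not called (-0.04). Cd3e, a T cell marker, did not pass the filter and stood at 1.52 in control and 1.48 in Uba3 cKO pools.

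Ptpn18, whose product dephosphorylates the receptor kinase HER2 (Erbb2), was the tyrosine phosphatase gene that fell. Its values were 10.70, 11.05 and 10.88 in control and 10.33, 10.08 and 10.53 in Uba3 cKO replicates. The lowest control pool was above the highest Uba3 cKO pool. The difference was -0.57 (SE 0.12, 95% interval -0.83 to -0.30, adjusted p = 0.0127), a 1.48-fold lower level. Without control replicate 2 or 3 the adjusted p was 0.0579 and 0.0561. Erbb2 itself was not called (7.45 in control and 7.46 in Uba3 cKO pools). The transcript Gm28417, which overlaps Ptpn18 on the opposite strand, stood at 3.72 and 3.67 and was not called (adjusted p = 0.454). Control replicates 2 and 3, which had the highest Ptpn18 values, also had the highest summed linear level of the 12 theca, stroma and luteal markers, 2829 and 2721 against 1820 in control replicate 1 and 1462 to 1614 in the Uba3 cKO pools (exact two-sided permutation p = 0.1, the smallest possible). Of the 11 of these markers above the filter 5 were called lower and none higher, with a median of -0.48. Insl3 was below the filter. The share called lower was 45.5%, against 2.50% over all tested genes. The calls of Acta2 and Cyp11a1 ended without control replicate 2 or 3 or Uba3 cKO replicate 3 (at an adjusted p of at most 0.0708 and 0.103). Col3a1 (-0.62) and Dcn (-0.51) stayed called without any single library (adjusted p up to 0.0360 and 0.0468). The part of these markers in the Ptpn18 result was not tested.

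Of the phosphatases that bind MAP kinases, Ptprr was the member above the filter. Its product inactivates ERK kinases. It stood at 11.33, 11.49 and 11.46 in control and 11.87, 11.71 and 11.84 in Uba3 cKO replicates, without overlap. The rise was 0.38 (SE 0.09, adjusted p = 0.0207), or 1.30-fold. It was no longer called without control replicate 3 (adjusted p = 0.0706), Uba3 cKO replicate 1 (0.106) or Uba3 cKO replicate 3 (0.0840). The gene 4933416C03Rik, which overlaps Ptprr on the opposite strand, stood at 3.27 in both groups. The relatives of Ptprr, Ptpn5, also called STEP, and Ptpn7 lay below the filter, at 3.12 and 2.07 in control and 3.19 and 2.02 in Uba3 cKO pools.

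Of the FERM-domain phosphatases, which sit at the membrane and cytoskeleton, Ptpn3 rose. Its values were 8.52, 8.15 and 8.56 in control and 8.94, 8.74 and 8.95 in Uba3 cKO replicates. Control replicate 2 was the lowest pool, and the groups did not overlap. Ptpn3 rose by 0.47 (SE 0.12, adjusted p = 0.0320). The call ended without control replicate 2 (0.34, adjusted p = 0.122), Uba3 cKO replicate 1 (0.112) or Uba3 cKO replicate 3 (0.113), and without the intensity trend in limma (0.0525). Ptpn21, a scaffold for Src signalling, was the most abundant of this subfamily per kilobase, with values of 12.88, 12.68 and 12.71 in control and 13.02, 12.97 and 12.65 in Uba3 cKO replicates (0.12, interval -0.10 to 0.35). Ptpn4 (0.11), Ptpn13 (-0.07) and Ptpn14 (-0.18) were not called. For Ptpn14, which acts in the Hippo pathway, the groups did not overlap (control 6.16 to 6.19, Uba3 cKO 5.75 to 6.13, adjusted p = 0.297). Ptpn20 was below the filter, at 1.23 in control and 1.20 in Uba3 cKO pools.

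The remaining non-receptor phosphatases were not called. Of the SH2-domain pair, Ptpn6 encodes SHP-1, known as a brake on signalling in blood cells, and Ptpn11 encodes SHP-2, which carries signals from receptor kinases to RAS and ERK. Ptpn6 had values of 8.57, 8.23 and 8.63 in control and 8.82, 8.72 and 8.70 in Uba3 cKO replicates, and the groups did not overlap (0.27, adjusted p = 0.190). Ptpn11 had values of 12.55, 12.21 and 12.50 in control and 12.66, 12.59 and 12.52 in Uba3 cKO replicates, with overlap (0.17, interval -0.04 to 0.39). Ptpn2, which restrains JAK and STAT signalling, stood at 12.03, 12.23 and 12.02 in control and 11.93, 11.83 and 12.03 in Uba3 cKO replicates (-0.16, interval -0.36 to 0.04). Ptpn1, the insulin receptor phosphatase PTP1B, had a difference of -0.09 (interval -0.31 to 0.13). Ptpn9, which has a lipid-binding Sec14 domain, stood at 8.36, 8.16 and 8.08 in control and 8.32, 8.49 and 8.37 in Uba3 cKO replicates (0.19, adjusted p = 0.305). Ptpn23, which works with the ESCRT machinery of endosomes, stood at 8.63, 8.24 and 8.27 in control and 8.47, 8.39 and 8.13 in Uba3 cKO replicates (-0.05, adjusted p = 0.851).

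Ptprc encodes CD45, the phosphatase of white blood cells, and was close to the filter in every pool. Its values were 3.90, 3.85 and 3.87 in control and 3.90, 4.02 and 3.86 in Uba3 cKO replicates, with overlap (0.06, interval -0.05 to 0.16). Of the 14 blood and immune markers, which leave Ptprc out, 12 were matched in the table and 8 were above the filter, with C1qa, Coro1a and Cd3e among those below it. None of the 8 rose, and Hbb-bs and C1qb fell by 0.36 and 0.35. Thus 2 of 8 were called lower, against 2.50% over all tested genes, and all 8 differences were below 0. The call of Hbb-bs ended without control replicate 1 or 3 or Uba3 cKO replicate 1 or 3 (adjusted p of at most 0.0954), while C1qb lost its call whichever of the 6 libraries was left out, with an adjusted p of at most 0.198. Their summed linear level ranged from 2039 to 2065 in control and from 1836 to 1990 in Uba3 cKO pools (exact two-sided permutation p = 0.1, the smallest possible). Among 11 tested granulosa and cumulus markers 2 rose, Kitl (0.44) and Fshr (0.42), and 1 fell, Inhba (-0.69), with a summed linear level of 15603 to 19586 in control and 14037 to 17918 in Uba3 cKO pools (p = 0.3 by the exact permutation test) and Ptx3 below the filter. These 3 calls are 27.3% of the tested granulosa and cumulus markers, against 8.14% over all tested genes. Each of the 3 calls ended without at least 1 library, including control replicate 2 for all 3 (adjusted p up to 0.111, 0.108 and 0.0890). Adjusted over the 5 marker lists, these permutation p-values were 0.167 or more. The part of surrounding follicle cells in the phosphatase results was not tested.

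Levels of different members were set side by side per kilobase of the longest annotated transcript. Ptpn2 was highest in control oocytes at 1642 linear units per kilobase, in the 94.7th percentile of tested genes, followed by Ptpn21 at 1218, Ptprr at 762, Ptpn11 at 740, Ptpn18 at 542 and Ptpre at 504. Ptprr and Ptpn11 were close neighbours in this order. In Uba3 cKO oocytes Ptprr stood at 992 and Ptpre at 755, and Ptpn18 at 367 was below Ptprj at 586. At the low end were Ptprh at 4.94 and Ptprc at 2.55 in control. The genes that rose covered most of this range, from Ptprb at 15.6 to Ptprr at 762 per kilobase in control. If a different transcript than the longest is the one expressed, the value per kilobase changes and the difference between the groups does not.

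**Figure D3:**
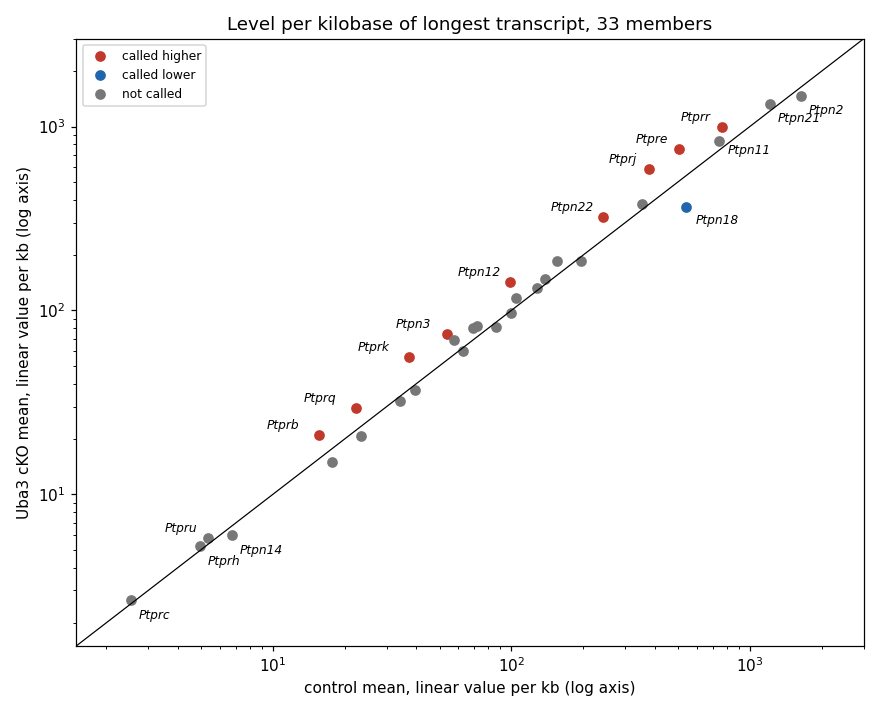
Mean linear value per kilobase of the longest annotated transcript in control (x axis) and Uba3 cKO oocytes (y axis), both on log axes, for the 33 tested members, with the diagonal marking equal levels. The red points of the 9 genes that rose lie above the diagonal from Ptprb (15.6 in control) to Ptprr (762), and the blue point of Ptpn18 (542 in control, 367 in Uba3 cKO) lies below it.

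Other phosphatases, most of the cysteine-based fold and with them the EYA phosphatases of another fold, were called about as often as all tested genes. Of 59 tested genes 2 rose and 3 fell, which is 8.47% called against 8.14% over all tested genes, with a median of -0.03. Dusp16, which inactivates stress-activated MAP kinases, rose from 10.17 ± 0.20 to 10.69 ± 0.02 (SD, n = 3 each, adjusted p = 0.00991), and Dusp18 rose by 0.48. Cdc25c, which activates CDK1, fell from 9.24 ± 0.09 to 8.82 ± 0.06 (SD, n = 3 each, adjusted p = 0.0195). Cdc25a (11.39 in control and 11.44 in Uba3 cKO pools) and Cdc25b (10.58 and 10.51) were not called (adjusted p of 0.816 and 0.720). Mtmr14, a lipid phosphatase of the myotubularin type, fell by 0.35 and Mtmr4, of the same type and named after its value was seen, fell by 0.34. Dusp16 was no longer called without control replicate 3 (adjusted p = 0.0545), Mtmr14 without control replicate 3 or Uba3 cKO replicate 1 (at most 0.0609), Dusp18 without control replicate 2 or Uba3 cKO replicate 1 or 3 (up to 0.0801), and Cdc25c without control replicate 2 or 3 or Uba3 cKO replicate 1 (up to 0.0897). The difference between this list and the tyrosine phosphatases was not tested.

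Tyrosine kinases, which the phosphatases oppose, were called in both directions. Of 46 tested receptor tyrosine kinases 7 rose and 2 fell, with a median of 0.03. These are 15.2% and 4.35% of the list, against 5.64% higher and 2.50% lower over all tested genes. Erbb4, a neuregulin receptor, rose from 7.92 ± 0.17 to 9.21 ± 0.11 (SD, n = 3 each), a difference of 1.28, and its relative Erbb3 rose by 0.58. The collagen receptor gene Ddr2 rose by 0.52, and Tie1 fell by 0.59. These 4 calls held without any single library. Kit, the receptor by which oocytes sense KIT ligand, was not called (0.25, adjusted p = 0.161). Of 24 tested non-receptor kinases 2 rose, among them Bmx (0.55), and Fer (-0.48) fell, with a median of -0.03. That is 8.33% higher and 4.17% lower, against the same 5.64% and 2.50%. Fer lost its call when control replicate 3 or Uba3 cKO replicate 1 was left out (adjusted p of at most 0.0642). The call of Bmx held without any single library. The Src-family kinase genes Fyn (0.17) and Yes1 (-0.17) were not called.

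Known or candidate extracellular partners of the receptors and adaptors of the pathway completed the lists. Of 15 tested partners 3 rose and 1 fell, with a median of 0.07. These 4 calls are 26.7% of the tested partners, against 8.14% over all tested genes. The contactins Cntn6 and Cntn4, surface proteins of the nervous system, rose by 0.58 and 0.38, Il1rap, a partner of LAR-type receptors, rose by 0.41, and the neuronal pentraxin gene Nptx2 fell by 0.96. The calls of Cntn6 and Nptx2 held without any single library. Cntn6, Cntn4, Dusp16 and Mtmr14, set together after their calls were seen, lie on chromosome 6, as Uba3 does. The 3 tyrosine phosphatase members on that chromosome, Ptpn6, Ptpro and Ptprz1, were not called. The part of that position in these values was not tested. The call of Il1rap ended without control replicate 2 or 3 or Uba3 cKO replicate 1 or 3 (at an adjusted p of at most 0.118), and that of Cntn4 without control replicate 3 or any Uba3 cKO replicate (up to 0.156). Of 31 tested adaptors Sos2, an activator of RAS, rose by 0.43 and 30 were not called, with a median of 0.04. That is 3.23% called, against 8.14% over all tested genes. Without control replicate 3 or Uba3 cKO replicate 3 Sos2 was not called (at an adjusted p of at most 0.118).

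**Figure D4:**
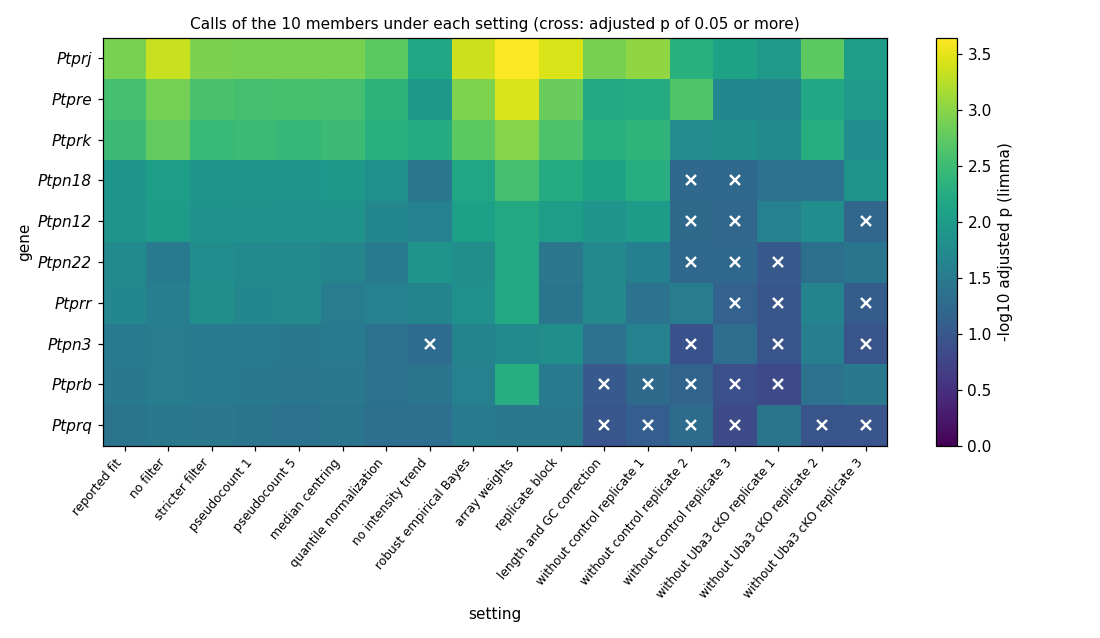
Calls of the 10 members (y axis) in the reported fit and 17 alternative settings (x axis), coloured by -log10 of the adjusted p in limma, with a white cross where the adjusted p was 0.05 or more. Ptprj, Ptpre and Ptprk have no cross, and Ptprb and Ptprq, at adjusted p of 0.0333 and 0.0393 in the reported fit, have several.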

How the data were processed

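RNA of 6 oocyte pools was sequenced after PicoPure extraction and Illumina TruSeq library preparation, per the labels' protocols. Tools listed by the submitters' processing notes are DESeq2, featureCounts, STAR and fastp, with the build GRCm39 and no versions or settings. The authors deposited normalized values on a log2 scale. The unit was read from the values (0.0363 to 18.01, with no exact 0), and the transform is not named. Low genes varied little between libraries, with an SD of 6.5e-05 for Ptpn20 in Uba3 cKO pools and 0.0099 for Ptprh in control pools. If the transform shrinks low values, changes of low genes are understated. Narrow intervals of low members such as Ptprh and Ptprc then do not show the absence of a change. Whether counting used strand is not stated, and reads of overlapping and antisense genes cannot be told apart. Depth is unknown, which leaves counting error without an interval.

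Symbols (27660 of 28738 IDs), transcript lengths and gene order came from GENCODE M21 (GRCm38), an earlier build than the authors'. Its positions gave chromosomes, gene order, overlapping genes and exons in the promoter windows, and none is printed. Promoters are RefSeq sequences of GRCm38.p6. The 17450 genes that reached 10 on the linear scale in 3 or more libraries were tested two-sided, using limma (version 3.58.1, under R 4.3.3), its intensity trend and Benjamini-Hochberg adjustment. The design had foreseen linear values and a pseudocount, and the log2 values were used as deposited. The fit was run on simulated data with independent normal noise for each gene. Such data hold no deviation shared within a pool and no counting error, so they do not check the calls made here. Whether each pool had its own animals is not stated, and the p-values then cover only the spread between these pools, which may be technical. Protein features were not used here.

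Members and lists (261 entries, 5 unmatched) were chosen with earlier results of these data known. Values are given for Uba3, for every called member and those next in adjusted p up to 14, for the highest member per kilobase of each subfamily, and for up to 4 called genes per other list. Genes named beyond that rule, such as Bcar1, Erbb2, Csk, Kit, Fyn, Yes1 and markers, were picked for their known role. Some genes of the lists are not reported here. Alternatives covered the filter, pseudocount, scaling, variance model, sample weights, replicate block and each library left out. The length and GC correction was chosen after seeing the data.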

Additional observations from a re-analysis of the deposited data

How the results depend on the processing

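The rises of Ptprj, Ptpre and Ptprk and their calls held under all 17 alternatives, with differences of 0.56 to 0.69, 0.52 to 0.67 and 0.51 to 0.62. All 10 called members kept their direction under the same alternatives. No filter, the stricter filter (a linear value of 50), pseudocounts of 1 and 5, median centring, quantile normalization and robust empirical Bayes left 9 members higher and 1 lower. With 1 library left out, 618 to 1637 genes, 4 to 8 higher members and 0 to 2 lower members were called, and the median of the members was 0.081 to 0.18. Without the intensity trend 8 were higher and 1 lower. Array weights gave 2298 called genes, against 1421. Members near 0 changed sign: Ptpn23 (0.044) with array weights, Ptprc (-0.021) and Ptprm (-0.0068) under the length and GC correction, and, with a library left out, Ptpn23 (-0.12 to 0.073), Ptprm (-0.0049 to 0.061), Ptprd (-0.049 to 0.21), Ptpn4 (-0.0036 to 0.23), Ptprs (-0.18 to 0.052), Ptpn13 (-0.16 to 0.040) and Ptpra (-0.095 to 0.033). None of these was called. The cause of these changes was not tested. Same-numbered libraries did not deviate together (correlations of -0.09, -0.20 and -0.05). Control replicates 1, 2 and 3 correlated best with Uba3 cKO replicates 2, 3 and 1 (0.28, 0.25 and 0.19). With 3 pools per group, these correlations cannot show whether pools were paired. With the replicate block 1258 genes, 9 higher and 1 lower members were called, with a median of 0.12. No library correlated best with its own number. Depth is unknown, so what it limits could not be stated.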

Other observations

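Chosen after the values were seen, 4 of the called members lie on chromosome 10, and these are all 4 members on that chromosome: Ptprk, Ptprr, Ptprb and Ptprq. Of the 832 tested genes of chromosome 10, 7.09% were called higher. Ptprr and Ptprb are neighbours in the annotation, with 4933416C03Rik between them. On the other side of Ptprr, Tspan8, a tetraspanin gene, rose from 6.41 to 6.88 (log2 difference 0.47, adjusted p = 0.0216), while next to Ptprb, Cnot2, a subunit of the CCR4-NOT deadenylase complex, stood at 12.36 in both groups. Beyond Cnot2, Myrfl rose from 5.97 to 6.73 (0.76). On the side of Ptprk, L3mbtl3 rose by 0.52 and Arhgap18 by 0.38, while Lama2 (-0.12) and Themis (0.27), the nearest coding genes of the table on either side of Ptprk, were not called. None of the tested neighbours of Ptprq within 4 coding genes on either side was called.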
